A study of Mus musculus with 41 samples.

Results

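Skeletal muscle genes were followed in mammary tumors that arose from Trp53-null tissue. The set held 8 genes of skeletal muscle fibres, Acta1, Ckm, Myh1, Myh4, Tnnt3, Tnni2, Mylpf and Pvalb. They were chosen by exact gene name among the 30175 named genes on the array. All 8 were on the array and all 8 passed the filter on dim signals, which left 23012 genes for testing. They were set apart as marks of muscle tissue that may have been taken with a tumor, and whether neighbouring muscle was the source of their RNA was not tested.

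Mammary tissue from Trp53-null BALB/c females of 8 weeks, 4 donors in all, was placed in the cleared inguinal fat pads of wild-type BALB/c females at 3 weeks of age, so that the fat pad, vessels and body wall around each tumor belonged to the wild-type host. All hosts then ate a low-fat diet (LFD, 10% of energy from fat) or a high-fat diet (HFD, 60% of energy from fat), and at 10 weeks of age some were switched to the other diet, which gave the 4 regimens LFD, HFD, HFD-LFD and LFD-HFD. A tumor was early when its latency was under 52 weeks and late otherwise. The 29 tumors whose morphology is labelled p53 variable are called epithelial here. They comprised 8 LFD tumors (4 early, 4 late), 8 HFD tumors (4 early, 4 late), 7 HFD-LFD tumors (3 early, 4 late) and 6 LFD-HFD tumors (3 early, 3 late). The 12 spindle cell tumors comprised 3 on LFD and 3 on HFD, all late, 3 on HFD-LFD (1 early, 2 late) and 3 on LFD-HFD (2 early, 1 late). Tumor RNA was labelled with Cy5 and hybridised with Cy3-labelled Universal Mouse Reference RNA, a pool of 11 mouse cell lines. The measure throughout is the log2 ratio of tumor to reference signal, so 0 means equal signals and a negative value means less signal in the tumor.

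Fast skeletal fibres contract through filaments of myosin and actin that are gated by calcium. Calcium released from the sarcoplasmic reticulum binds troponin, which frees actin for the myosin heads, and parvalbumin and the reticulum's pumps then remove it. Mammary epithelium does not make these filaments, but the inguinal gland lies against the muscle of the abdominal wall and thigh. In bulk RNA, fewer muscle cells and less muscle RNA per cell cannot be told apart.

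Promoters of 4 of the genes are shown because these genes varied most over tumors (Myh4, Pvalb), had the lowest median ratio (Acta1) or varied least (Ckm). Each run is the 250 bases before the RefSeq transcript start (GRCm38.p6), read on the gene's strand. Capitals mark the E-box CANNTG bound by myogenic factors, TATAAA on the gene's strand, and matches to the MEF2 and CArG consensus motifs on either strand.
Myh4 (chr11:67237562-67237811, plus strand): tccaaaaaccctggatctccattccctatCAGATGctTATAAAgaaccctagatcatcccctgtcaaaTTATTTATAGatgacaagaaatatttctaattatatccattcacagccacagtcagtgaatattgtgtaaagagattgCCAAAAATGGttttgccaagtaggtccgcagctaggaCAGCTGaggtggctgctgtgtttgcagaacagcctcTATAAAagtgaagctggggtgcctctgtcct
Pvalb (chr15:78206401-78206650, minus strand): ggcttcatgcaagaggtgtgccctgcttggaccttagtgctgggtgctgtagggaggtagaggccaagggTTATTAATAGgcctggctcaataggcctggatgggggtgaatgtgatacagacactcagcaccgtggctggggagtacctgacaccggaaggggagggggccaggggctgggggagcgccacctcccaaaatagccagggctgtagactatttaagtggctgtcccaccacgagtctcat
Acta1 (chr8:123894776-123895025, minus strand): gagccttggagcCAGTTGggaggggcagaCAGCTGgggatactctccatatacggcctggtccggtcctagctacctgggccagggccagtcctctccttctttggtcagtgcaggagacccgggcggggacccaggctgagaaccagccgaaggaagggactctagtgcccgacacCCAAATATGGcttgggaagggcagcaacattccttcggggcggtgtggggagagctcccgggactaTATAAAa
Ckm (chr7:19410844-19411093, plus strand): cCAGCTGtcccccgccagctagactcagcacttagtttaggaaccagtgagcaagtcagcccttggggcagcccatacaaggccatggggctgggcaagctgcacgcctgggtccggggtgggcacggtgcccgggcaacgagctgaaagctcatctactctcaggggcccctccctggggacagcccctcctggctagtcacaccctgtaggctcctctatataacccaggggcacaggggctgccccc

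The RefSeq table held 6 of the 8 members, without Tnnt3 and Tnni2, and it listed 2 starts for Pvalb, of which the first is shown. A MEF2 match lay at -182 to -173 in Myh4 and at -180 to -171 in the Pvalb window shown, and also at -211 to -202 in Myh1, while 2.92% of 32851 promoter windows of this length hold one. A CArG match lay at -104 to -95 in Myh4 and at -73 to -64 in Acta1, against 1.47% of all windows. The E-box is common, in 66.2% of all windows, and TATAAA is in 7.59%. These are letters in a window and say nothing of binding.

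The array reads each gene through a probe of 60 bases. Probe positions in the files are in NCBI37/mm9, and the exon or untranslated region under each probe was not analysed here. The Acta1 probe lies on the minus strand at chr8:126416197-126416256. The Ckm probe lies on the plus strand and is laid over 2608 bases, chr7:20002222-20004829, so it joins pieces that are apart in the genome. The Tnnt3 probe lies on the plus strand at chr7:149698467-149698526. The Acta1 and Tnnt3 probes are shown because their genes followed each other most closely, and the Ckm probe because it spans separate pieces of the gene, and none of their bases is capitalised.
Acta1 probe: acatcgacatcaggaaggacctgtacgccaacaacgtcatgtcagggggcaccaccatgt
Ckm probe: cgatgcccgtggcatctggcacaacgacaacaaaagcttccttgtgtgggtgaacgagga
Tnnt3 probe: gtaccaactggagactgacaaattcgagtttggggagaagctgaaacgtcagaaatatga

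Between 52.4% and 94.9% of spots (median 70.4%) were well above background in the tumor channel of an array. In array 60L, an early HFD epithelial tumor, 22.02% of spots were marked as outliers, against a median of 0.665% over arrays, and 6 of the 8 members have no value there. In array MSU_122Rb, a late HFD-LFD epithelial tumor, 8.04% of spots were so marked, 94.9% were well above background, the most of all arrays, and the SD of the log2 ratio over genes was 1.24, the smallest of all arrays. In array 42L4B, also an early HFD epithelial tumor, Acta1 and Tnni2 have no value. The Cy5 signal is taken as the tumor, as the labels state, although the methods text names the reverse. With this direction the Y-linked genes, which female tissue lacks, were brighter in the reference on 38 of 41 arrays. In the deposited value table the columns named 40R4A, 57R and 65R matched the scanner files of 57R, 65R and 40R4A, with r of 0.968, 0.965 and 0.966. Groups follow the scanner files' labels. All 12 spindle cell arrays were read in 1 session on their own scanner, so histology, scanner and session cannot be told apart.

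Muscle genes gave far less signal in most tumors than in the reference. The median log2 ratio over tumors was -5.49 for Acta1, -5.26 for Ckm, -5.21 for Myh1, -5.11 for Tnni2, -4.83 for Mylpf, -4.40 for Tnnt3, -3.70 for Pvalb and -3.67 for Myh4. At its median, Acta1 in a tumor therefore had 2.22% of the reference's signal, and Myh4 had 7.83%. Only 0.999% of the 23012 genes had a lower median than Acta1, and 4.67% had a lower median than Myh4. The reference is bright for these genes, with a median Cy3 signal of 479770 for Acta1 and 2540 for Myh4, so a strongly negative ratio does not mean an absent signal. In the tumor channel Acta1, Ckm, Myh1, Tnnt3, Tnni2 and Pvalb were well above background in all 41 tumors and Myh4 in 40. Mylpf was the exception, at 19 of 41 tumors, 18 epithelial and 1 spindle cell. Among marker genes of other tissues, the list of epithelial genes had a median log2 ratio of 1.57 and the list of smooth muscle genes -2.28.

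**Figure D1:**
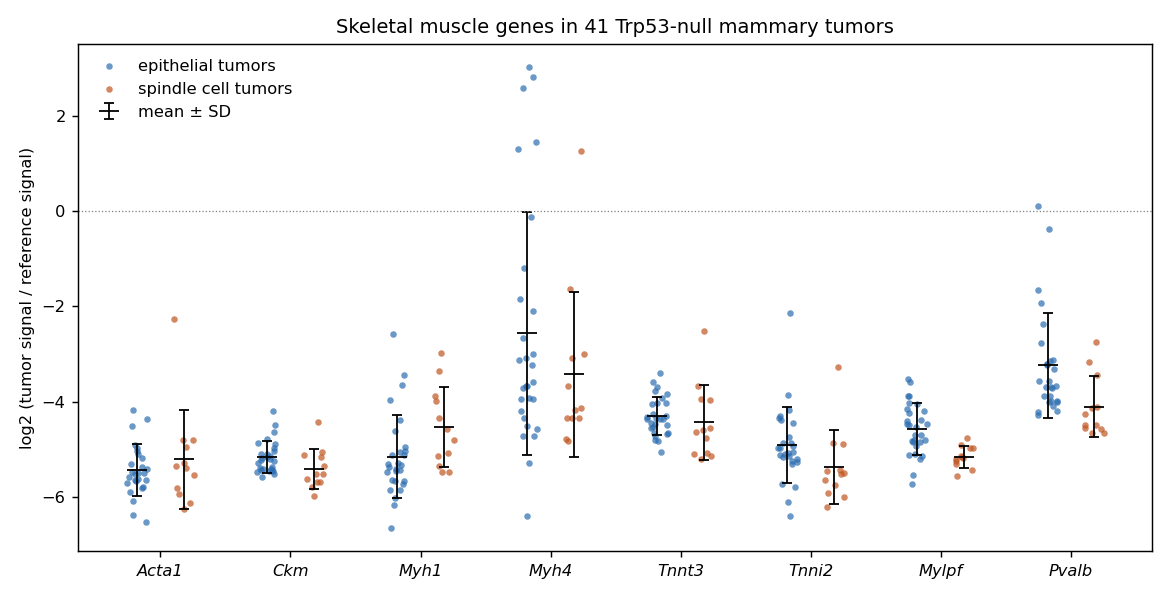
Log2 ratio of tumor to reference signal of the 8 skeletal muscle genes in each epithelial (blue) and spindle cell (orange) tumor; bars give the mean and SD of each histology. Most values lie between -6 and -3, and Myh4 alone passes 1, in 6 tumors.

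Myh4 encodes the myosin heavy chain of the fastest fibres, type IIb. Its log2 ratio ran from -6.40 to 3.02 over tumors, and only 69 of the 23012 genes had an SD above its 2.35. Tumors 19R and 13L (epithelial, LFD, late) had 3.02 and 2.58, and 82L (epithelial, LFD-HFD, early) had 2.81. Tumors 56R and 62L (epithelial, HFD, late) had 1.45 and 1.29, and M33R (spindle cell, LFD, late) had 1.27. In these 6 tumors the Myh4 signal exceeded that of the reference, 8.12-fold in 19R and 2.41-fold in M33R. Tumor 57R (epithelial, HFD, late) followed at -0.12, and the other 34 tumors had -1.19 or less. The Cy5 signal was 50376 in 19R, 38574 in 13L and 24034 in 82L. The low end of the range was set partly by the reference channel, since the reference signal for Myh4 was 20739 in 60L against a median of 2540.

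Pvalb encodes parvalbumin, the calcium buffer of fast fibres. Its log2 ratio ran from -4.66 to 0.11 with a median of -3.70 (n = 40). The highest tumors were 19R at 0.11, 82L at -0.37, 56R at -1.66, 13L at -1.93 and 62L at -2.37. These are the 5 epithelial tumors with the highest Myh4, and 5 of the 6 highest tumors for Pvalb were among the 6 highest for Myh4. The other, M76R, a late spindle cell tumor on LFD-HFD, had -2.75. M33R, high for Myh4, had a Pvalb ratio of -3.17, which ranked 10 of 40.

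Myh1 encodes the myosin heavy chain of type IIx fibres and is the neighbour of Myh4 on chromosome 11. Its log2 ratio ran from -6.64 in 110R (epithelial, HFD-LFD, late) to -2.59 in 13L, with a median of -5.21. The next highest tumors were M76R at -2.98, M33R, 82L and 62L, so 4 of the 6 highest tumors were also among the 6 highest for Myh4. Mylpf encodes the fast regulatory light chain of myosin. Its log2 ratio ran from -5.73 to -3.53, with 19R highest, and its Cy5 signal never passed 68.1.

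Acta1 encodes the actin of skeletal muscle. Its log2 ratio ran from -6.51 to -2.27 with a median of -5.49 (n = 39). M76R stood apart at -2.27, or 20.8% of the reference's signal, and 19R followed at -4.16. Tnnt3 and Tnni2 encode the fast fibre's troponin T and troponin I. Tnnt3 ran from -5.20 to -2.52 and was also highest in M76R, followed by 19R at -3.39. Tnni2 ran from -6.39 to -2.14, with its highest value in 31R (epithelial, LFD, early) and the next in M76R at -3.27. In 31R Mylpf was also high at -3.58, the second of all tumors, and Tnnt3 at -3.70, but Myh4 had -3.94 and Acta1 -5.67. Ckm encodes the muscle creatine kinase that rebuilds ATP. It had the narrowest range, from -5.98 to -4.18 with an SD of 0.38, and 19R, M76R, 56R, 82L and 62L were its highest tumors.

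**Figure D2:**
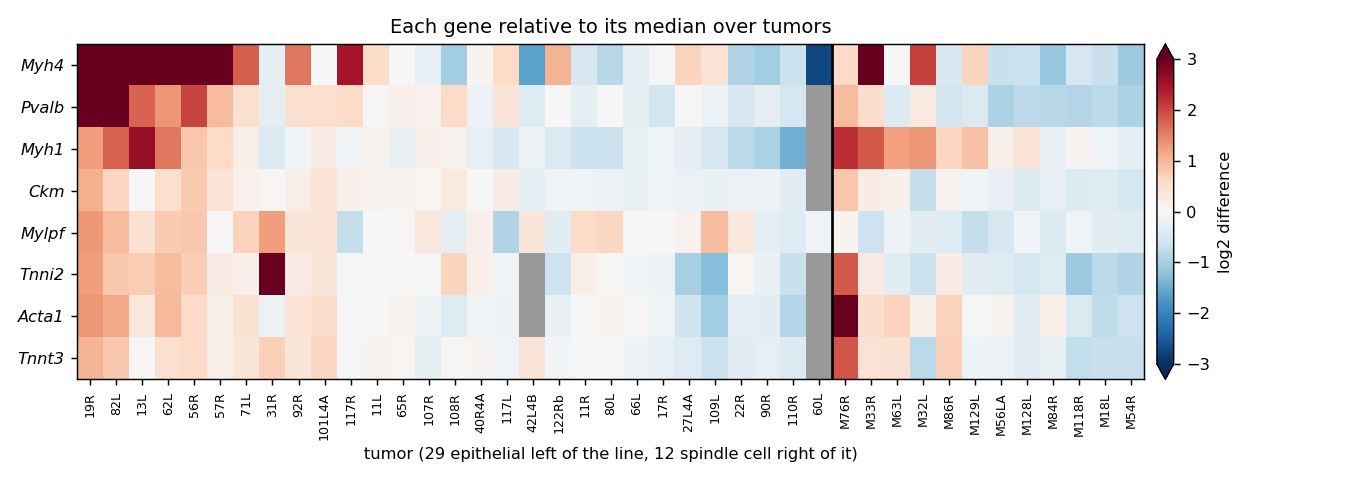
Log2 ratio of each muscle gene minus that gene's median over tumors, as colour, for each tumor; tumors are ordered by the mean of the 8 genes within each histology, grey marks values left out as outlier spots, and the scale is cut at 3 in both directions. Tumors 19R, 82L, 13L, 62L and 56R are red for Myh4 and Pvalb, whereas M76R is reddest for Acta1, Tnnt3, Tnni2 and Myh1.

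Tumor 82L was among the 6 highest for all 8 members, 19R and 62L for 7 each, M76R for 6, and 13L and 56R for 4 each. The set therefore did not order tumors in 1 way. In M76R, Myh4 had -3.08, a Cy5 signal of 262, and ranked 16 of 41, whereas Acta1 and Tnnt3 were the highest of all tumors. M76R also had the highest median for the list of adipocyte genes, 3.35, against -5.28 to -0.61 in the epithelial tumors, with Fabp4 at 3.95 and Adipoq at 3.16. Its tumor channel had 59.1% of spots well above background, the lowest of the spindle cell tumors. The part of these features in the muscle values was not tested.

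A further 65 genes from 5 lists of skeletal muscle genes, which hold no member, were read in the same tumors. Their median log2 ratio ran from -4.88 to -3.47 in the epithelial tumors (median -4.39) and from -5.13 to -3.75 in the spindle cell tumors (median -4.85). Tumor names are given without the prefix of the labels except where needed. The highest tumors were 19R, 82L, 13L, MSU_122Rb, M76R and 62L, of which 4 had a Myh4 ratio above 0. M76R was the highest tumor for 18 of the 65 genes, MSU_122Rb (epithelial, HFD-LFD, late) for 12, 19R for 10 and 82L for 6. That array had the smallest spread of ratios over genes, and the part of this in its muscle values was not tested. Tumor MSU_122Rb was outside the 6 highest tumors for each of the 8 members, with a mean over them of -4.81.

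Across tumors the 8 members varied together. All 28 pairs had a positive Pearson's r, with a median of 0.55 and a highest value of 0.88 for Acta1 with Tnnt3 (Spearman's rho 0.79, n = 39). By a two-sided permutation test with 100000 resamples, 26 of 28 pairs had an adjusted p under 0.05 for r and 24 for rho, with Benjamini-Hochberg adjustment over the 28 pairs. The permutation p of Acta1 with Tnnt3 was 1e-05, the smallest the resamples can give (adjusted p 3.11e-05). The pairs that missed were Mylpf with Acta1 (r 0.24, rho 0.26, permutation adjusted p 0.14) and Mylpf with Myh1 (r 0.14, rho 0.07, permutation adjusted p 0.40). Without the 2 tumors farthest from the median of the first gene, r ran from 0.11 to 0.83 and stayed positive for all 28 pairs. Within epithelial tumors the median r was 0.61 and all 28 pairs were positive. Within spindle cell tumors the median was 0.70 and 27 pairs were positive, and without the 2 farthest tumors 23 remained positive.

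The relations were also read without the 6 tumors with Myh4 above 0. Without them, 14 of 28 pairs had an adjusted p under 0.05 for r and 13 for rho by the same permutation test, the median r was 0.39 and 26 of 28 pairs were positive. Acta1 with Tnnt3 kept an r of 0.85 (rho 0.71), Ckm with Tnnt3 0.81 (rho 0.76), Tnnt3 with Tnni2 0.78 (rho 0.82) and Ckm with Pvalb 0.73 (rho 0.73). Mylpf had an r of 0.03 with Acta1, 0.26 with Tnnt3 and -0.16 with Myh1. Since these tumors were left out by their Myh4 value, the range of Myh4 was cut, and its own relations are not read here. The counts and the median r above include the pairs of Myh4. Part of their fall was thus set by the selection, and the weight of these tumors cannot be read from it.

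The mean of the members was taken without scaling, so Myh4, with an SD of 2.35 over tumors, weighed most in its variation. The next largest SD of a member was 1.05, for Pvalb. The 15 genes whose ratio was most like this mean over tumors are given as a description, with n from 39 to 40 tumors. They were Actn3 (r 0.92), Trdn (0.89), Myo18b (0.89), Cox6a2 (0.87), Tcap (0.87), Cacna1s (0.86), Myoz1 (0.85), Myl1 (0.85), Pgam2 (0.82), Myh8 (0.81), Jsrp1 (0.80), Ryr1 (0.78), Rpl3l (0.77), Stxbp4 (0.77) and Mybpc2 (0.76). Of these, 12 are in the lists of skeletal muscle genes, with Myh8 counted from a further list of embryonic and neonatal muscle genes. Actn3 is the Z-disc actinin of fast fibres, Trdn, Cacna1s and Ryr1 belong to the calcium release unit, and Cox6a2 and Pgam2 are muscle forms of a respiratory chain subunit and a glycolytic enzyme. Over all 23004 genes that are not members the median r was 0.01, and 219 genes had an r over 0.5. In the 35 tumors with low Myh4, Cox6a2 had an r of 0.85 and Myo18b 0.83, while Mybpc2 had 0.37 and Ryr1 0.38. Mybpc2, the fast form of myosin-binding protein C, reached its highest ratio, -1.01, in 19R.

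Likeness to the members' mean, in which Myh4 weighed most, differed among lists of marker genes. The median r with the members' mean was 0.72 for 6 fast fibre filament genes, 0.65 for 23 genes of giant, Z-disc and M-band proteins, 0.62 for 13 energy genes and 0.57 for 15 genes of calcium release and uptake. It was 0.37 for 8 slow fibre filament genes, where Tpm3, a gene of many cell types, had -0.18 and Tnnt1 had 0.47. It was 0.26 for 8 myogenic regulators and satellite cell genes, with Myog at 0.60, and Myf5 was never well above background. Over all tumors the lists of other tissues had 0.32 for adipocyte, 0.16 for peripheral nerve, 0.09 for lymphocyte, 0.07 for cardiac muscle, 0.06 for smooth muscle, 0.04 for mesenchymal and 0.02 for epithelial genes. No gene of these 7 lists had an r over 0.5, whereas 41 of the 65 genes of the 5 skeletal muscle lists did. Without the 6 tumors of high Myh4 the order was different, with a median r of 0.59 for adipocyte and 0.46 for lymphocyte genes, against 0.43 for giant, Z-disc and M-band proteins, 0.44 for calcium release and uptake, 0.51 for energy, 0.62 for slow and 0.73 for fast fibre filament genes. These tumors were left out by their Myh4 value, and Myh4 had the largest SD of the members, 2.35. The range of the members' mean was therefore cut as well, and the change of order is not read as a result about the lists. Among the 35 tumors left, M76R and 57R had the highest mean of the members, -3.25 and -3.95. M76R was also highest for the adipocyte list (median 3.35) and 57R for the lymphocyte list (3.92), and their part in these values was not tested.

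**Figure D3:**
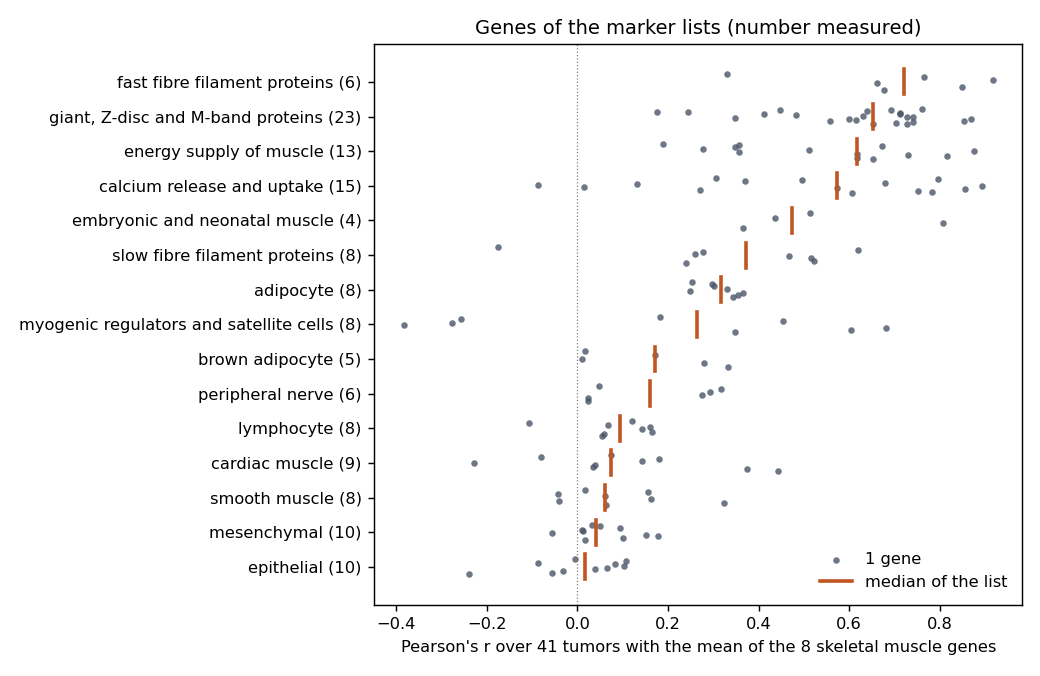
Pearson's r of each marker gene with the mean of the 8 muscle genes over tumors (points), by list, with the median of the list (orange); the number of genes measured is in brackets. Lists of fast fibre, Z-disc, energy and calcium genes have medians from 0.57 to 0.72, and lists of smooth muscle, mesenchymal and epithelial genes lie near 0.

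Whether the muscle genes differed with histology was asked first, with limma over 23012 genes at an adjusted p of 0.05. Mylpf fell in spindle cell tumors, and the other 7 members did not pass the threshold. This 1 of 8 stands against 20.7% of all genes called, 13% lower and 7.70% higher. The mean log2 ratio of Mylpf was -5.15 over 12 spindle cell tumors (SD 0.23) and -4.57 over 29 epithelial tumors (SD 0.54), a difference of -0.58 with an SE of 0.16 and an adjusted p of 0.00945. Spindle cell values ran from -5.55 to -4.75 and epithelial values from -5.73 to -3.53, so the groups overlap. Because the signal was well above background in only 1 of 12 spindle cell arrays, most of its values there are near the limit of measurement. With the tumor channel alone the difference was -0.31 (adjusted p 0.326), and after normexp correction and loess it was -0.27 (adjusted p 0.497), so the call was lost under both.

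Pvalb averaged -4.10 over 12 spindle cell tumors (SD 0.64) and -3.23 over 28 epithelial tumors (SD 1.096), a difference of -0.87 with an SE of 0.33. Its limma adjusted p of 0.0555 missed the threshold, and it passed without M32L, M86R and M76R (-1.08, adjusted p 0.0307) and without any 1 of 110R, 17R, 22R, 42L4B, 66L, M32L, M33R and M76R (adjusted p 0.0315 to 0.0494). Ckm differed by -0.25 (SE 0.13, adjusted p 0.163). Without M76R alone, Mylpf, Pvalb and Ckm were called, with adjusted p of 0.0315 for Pvalb and 0.0408 for Ckm. For Ckm the reference channel itself was lower on the spindle cell arrays by 0.51 (adjusted p 8.78e-10), and the tumor channel alone was lower by 0.77 (limma adjusted p 0.000106). The reference channel also differed for Tnnt3 (-0.24, adjusted p 0.00682), Myh1 (-0.15, adjusted p 0.00514) and Pvalb (0.11, adjusted p 0.0480), 4 of 8 members in all. The part of scanner, session and reference in these differences was not tested. Myh1 leaned the other way, at -4.53 ± 0.84 in spindle cell and -5.15 ± 0.88 in epithelial tumors, a difference of 0.62 with an SE of 0.29 and an adjusted p of 0.129, which passed without 13L (0.71, adjusted p 0.0459). Myh4 had -3.42 ± 1.73 and -2.56 ± 2.55, a difference of -0.86 with an SE of 0.78 and an adjusted p of 0.457. Acta1 differed by 0.22 and, without M32L, M86R and M76R, by -0.13.

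Of the 65 genes in the skeletal muscle lists, 15 were called between histologies, 14 lower and 1 higher in spindle cell tumors, or 23.1% against 20.7% of all genes. The largest differences among the 14 were those of Smpx (-1.42), Lmod2 (-1.23) and Neb (-1.02), and the gene called higher was Cacnb1 (0.50). The 14 also included Myl2 and Myl3, light chains of slow and cardiac fibres (-0.63 and -0.81), Sln, a regulator of the calcium pump (-1.01), Casq2, the slow and cardiac calsequestrin (-0.82), and Mb, myoglobin (-0.69). Of the 8 slow fibre filament genes 2 were called, with a median of -0.05 over the 8. None of the 6 fast fibre filament genes was called, with Mybpc2 at -0.94 (SE 0.38, adjusted p 0.077) and Actn3 at -0.61 (SE 0.29, adjusted p 0.137), but their median was lower, at -0.57. The median difference was -0.29 over the 65 genes, -0.35 over the members and -0.09 over all genes. Lists of other tissues were also lower, with medians of -0.70 for epithelial genes (10 of 10 negative) and -0.51 for lymphocyte genes (7 of 8). Adipocyte genes had -0.44, peripheral nerve genes -0.42 and smooth muscle genes -0.32. Cardiac muscle (0.06), brown adipocyte (0.23) and mesenchymal genes (0.88) had positive medians. The part of these tissues in the muscle values was not tested. Vim, Col1a1, Col1a2, Col3a1 and Pdgfrb of the mesenchymal list, 5 of 10, were higher in spindle cell tumors.

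**Figure D4:**
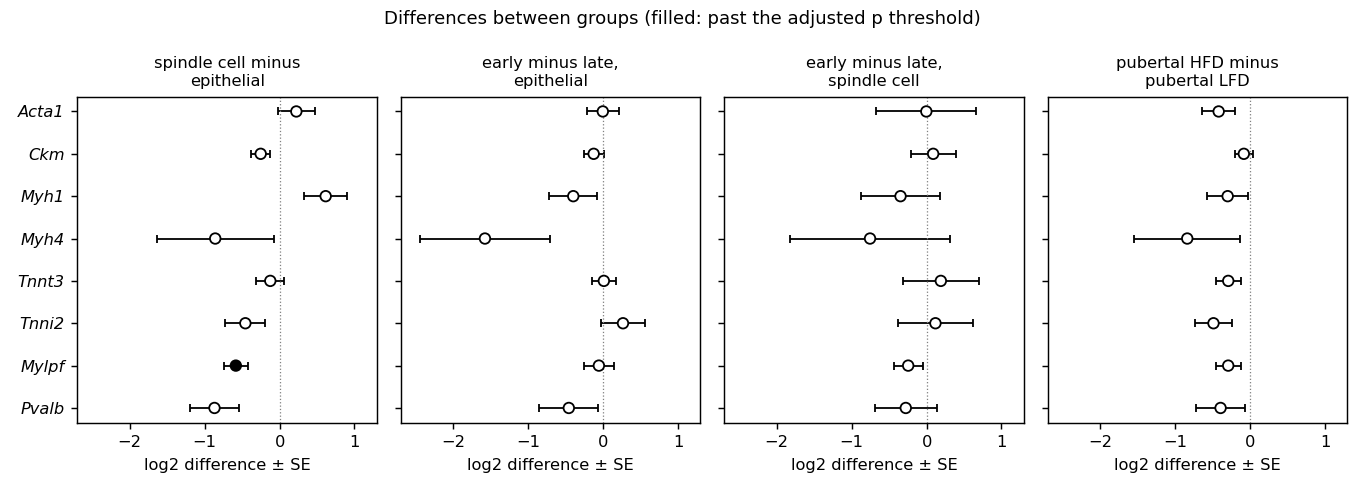
Log2 difference between groups with its standard error from limma for each muscle gene in the 4 main comparisons; filled circles passed the adjusted p threshold. Only Mylpf between histologies is filled, and Myh4 has the widest errors.

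Early and late epithelial tumors were compared next, at an adjusted p of 0.10. None of the 8 members was called by limma, none had an unadjusted p under 0.05, and 0.261% of all genes were called, 0.143% higher and 0.117% lower in early tumors. Myh4 showed the largest difference, with a mean of -3.38 over 14 early tumors (SD 2.18) and -1.80 over 15 late tumors (SD 2.71), which is -1.58 with an SE of 0.87 and an adjusted p of 0.442. Its two-sided permutation p was 0.0959. Early values ran from -6.40 to 2.81 and late values from -4.71 to 3.02. Within the 3 slides that held both, the Myh4 difference was -4.67, 6.22 and -1.59, while a fit that held each slide fixed gave -0.58. The -4.67 set 2 early tumors on LFD-HFD against 2 late tumors on HFD, so onset and regimen cannot be told apart there. The fit with slides held fixed includes that slide and carries the same limit. The 6.22 rests on 1 early tumor against 3 late tumors. The -1.59 set 2 early against 2 late tumors on HFD, among them 40R4A, 57R and 65R, whose labels differ in the deposited table. Under those labels 57R would count as early and 65R as late, so the -1.59 depends on the labels used. The fit with slides held fixed uses this slide too. The direction of the Myh4 difference between early and late tumors was not the same in every regimen. On LFD the 4 early tumors had -4.57, -4.18, -3.94 and -3.70, all below the 4 late tumors, whose lowest value was -3.12 and whose highest were 2.58 and 3.02, but these early and late tumors lay on separate slides, so onset and slide cannot be told apart. On HFD early tumors ran from -6.40, in 60L with its many outlier spots, to -3.59 and late tumors from -3.95 to 1.45. Under the labels of the deposited table, 57R, the next tumor below those with Myh4 above 0, would count as early. On HFD-LFD early tumors ran from -3.91 to -1.19 and late tumors from -4.71 to -2.66. These too lay on separate slides, so onset and slide cannot be told apart on HFD-LFD either. On LFD-HFD early tumors ran from -4.50 to 2.81 and late tumors from -4.71 to -1.85. Pvalb differed by -0.46 (SE 0.40), Tnni2 by 0.27 (SE 0.30), and Acta1 and Tnnt3 by 0.00 and 0.01. The difference was negative for 61 of the 65 listed muscle genes, with a median of -0.23 against 0.00 for all genes, and 0 of the 65 were called. Markers of other tissues leaned the same way without a call, with 7 of 8 smooth muscle genes negative (median -0.65), 7 of 8 adipocyte genes (median -0.17) and 5 of 5 brown adipocyte genes (median -0.15), and their part in the muscle values was not tested.

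Among spindle cell tumors, 3 early and 9 late, limma called 0 genes of 23005, and 480 had an unadjusted p under 0.05. Members differed by between -0.75 (Myh4, SE 1.07) and 0.19 (Tnnt3, SE 0.51). The onset difference did not differ between histologies by the limma interaction for any member (adjusted p 0.9999 for all 8), where 0.00435% of all genes were called. The smallest exact permutation p of a member was 0.1, for Mylpf.

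For the diet of puberty, 21 tumors of hosts on HFD and 20 of hosts on LFD before the switch were compared. All 8 members had a lower mean after pubertal HFD, by between 0.08 and 0.84, but limma called none and 0.00869% of all genes. All 8 adipocyte genes (median -0.65), all 8 smooth muscle genes (median -0.35) and all 10 epithelial genes (median -0.33) were also lower in the mean, none of them called, and their part was not tested. Tnni2 averaged -5.30 over 19 tumors after pubertal HFD (SD 0.60) and -4.81 over 20 after pubertal LFD (SD 0.91), a difference of -0.49 with an SE of 0.24 (p 0.0518, adjusted p 0.731 by limma). Acta1 differed by -0.42 (SE 0.22, adjusted p 0.760) and Myh4 by -0.84 (SE 0.71, adjusted p 0.862). In the fit that held each slide fixed, Ckm, Myh1, Mylpf, Myh4 (0.60) and Pvalb (0.03) turned positive, none called. Only 4 slides held both pubertal diets. Their epithelial tumors were 2 late tumors on HFD and 2 early tumors on LFD-HFD, so pubertal diet and onset cannot be told apart among them. The pubertal difference did not differ between histologies for any member by the interaction, where 0.469% of all genes were called, 0.309% lower and 0.161% higher, and the smallest adjusted p was 0.564, for Mylpf.

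The 4 regimens among epithelial tumors were compared by limma's F test, which called none of the members and 0.448% of all genes. The smallest p was that of Acta1, 0.0264 (adjusted p 0.329). Its mean log2 ratio was -5.89 ± 0.39 (SD, n = 7) on HFD-LFD, -5.44 ± 0.58 (SD, n = 8) on LFD, -5.19 ± 0.40 (SD, n = 6) on HFD and -5.11 ± 0.48 (SD, n = 6) on LFD-HFD. The values on HFD-LFD, from -6.51 to -5.49, overlapped those of each other regimen. In the pairwise test LFD-HFD exceeded HFD-LFD for Acta1 by 0.78 (SE 0.27, p 0.0070, adjusted p 0.791 by limma), and for no pair of regimens was a member called, against 1.32% of all genes for HFD-LFD minus LFD, 0.0217% for HFD-LFD minus HFD, 0.196% for LFD-HFD minus HFD and 0 genes for the other 3 pairs. Myh4 did not separate regimens, with -2.11 ± 3.08 (n = 8) on LFD, -2.53 ± 3.005 (n = 8) on HFD, -3.30 ± 1.18 (n = 7) on HFD-LFD and -2.34 ± 2.79 (n = 6) on LFD-HFD. None of the 6 tumors with Myh4 above 0 was on HFD-LFD, a count given without a test. The reference channel alone, which holds the same RNA on every array, differed between regimens for 11672 of 23012 genes and for 3 members, a comparison added after seeing the data, and its part in the ratios was not tested. Most slides held 1 regimen, so a fit that holds each slide fixed could not be made. Among spindle cell tumors with 3 per regimen, limma called 0 genes of 23003 and no member, and the smallest member p was 0.113, for Myh4.

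**Figure D5:**
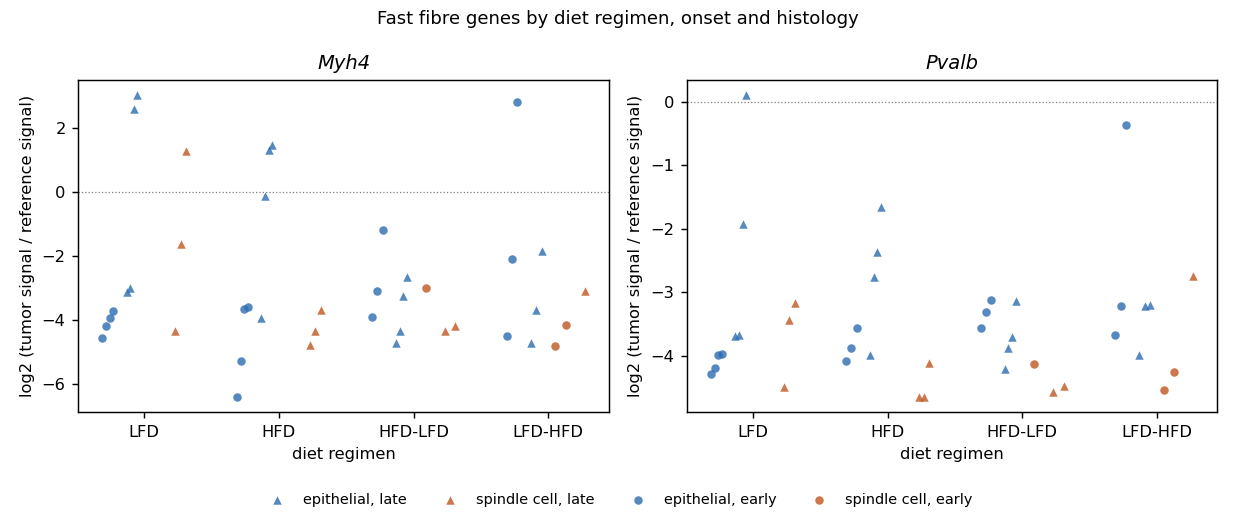
Log2 ratio of Myh4 (left) and Pvalb (right) in each tumor by diet regimen, with histology as colour and onset as marker shape. High values are single tumors within LFD, HFD and LFD-HFD, and the HFD-LFD tumors all lie below -1 for Myh4.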

How the data were processed

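RNA of 41 mouse mammary tumors was hybridised on 2-colour Agilent arrays, Cy5 for the tumor and Cy3 for the reference. The deposited scanner files hold signal intensity per spot, from which the authors' software had already subtracted background and normalized the dyes. File headers name Agilent Feature Extraction 11.0.1.1 for 29 arrays and 10.5.1.1 for 12, while the submitters' processing notes name 8.5.1.1. The authors also deposited a table of log2 ratios, used as an alternative only.

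From the processed intensities, log2(Cy5/Cy3) was taken, spots marked as outliers were left out, spots of a probe were averaged, and each gene name was read from the probe that was brightest on average. Genes whose geometric mean of both channels passed 10 on at least 80% of arrays were tested (23012 of 30175) with limma 3.58.1 in R 4.3.3 (lmFit and eBayes), with Benjamini-Hochberg adjustment over all genes tested. Calls needed an adjusted p under 0.05 between histologies and under 0.10 elsewhere. The limma comparisons, but not the permutation tests, were checked on simulated data with a log2 change of 2 in 200 genes. It was recovered in 29.3% of these for spindle cell regimens, 59.7% for spindle cell onset, 61% for the onset interaction and 71.5% for the pubertal interaction. In the rest it was recovered in 83.3% to 98.2%. Even a change of that size could thus be missed, most of all among spindle cell tumors. Precision is set by how many arrays a group has. The labels do not say whether each tumor came from its own host, and 3 label numbers are shared by 2 tumors, so p-values measure the spread between tumors. The members and gene lists were chosen with earlier results of these data known. Named genes were the members, up to 4 genes per list of highest tumor signal, and the 15 genes most like the members' mean; genes named beyond these were chosen after their values were seen. Of the list genes, 3 were found under older array names. Alternatives covered background correction, centring, the tumor channel alone, filters, probe choice, the authors' table, slide, label conflicts and leaving out tumors.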

Additional observations from a re-analysis of the deposited data

Results flagged for a closer look

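In the epithelial tumors of each regimen, a single tumor far from the others was looked for in 32 groups of 6 to 8 values, where about 1 group in 20 is marked by chance. On LFD, tumor 19R had an Acta1 log2 ratio of -4.16, against -5.19 for the next tumor, and a Ckm ratio of -4.18, against -5.16. On LFD-HFD, tumor 82L had a Pvalb ratio of -0.37, against -3.21 for the next tumor. On HFD-LFD, tumor 110R had the lowest Myh1 ratio, -6.64, against -5.72 for the next. Both 19R and 82L were also high for Myh4.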

How the results depend on the processing

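Between histologies 1 member was called, and the count was 0 after normexp correction and loess and in late tumors only, and 2 with no filter, in the authors' table and without M32L, M86R and M76R. Leaving out 1 tumor at a time gave 1 to 3 members. With the tumor channel alone the 1 member called was Ckm and not Mylpf, and in the authors' table Myh1 was called as well (0.79, adjusted p 0.0296). The permutation test over tumors gave unadjusted p of 0.00054 for Mylpf, 0.00322 for Pvalb and 0.0426 for Ckm. For the pubertal diet difference between histologies the count went from 0 to 1 after normexp correction and loess, where Mylpf turned from 0.44 to -1.44 (adjusted p 0.0393), and the cause was not tested. In the comparisons of onset, pubertal diet and regimen, within histology or over all tumors, and of onset between histologies, 0 members were called by their ratio or tumor signal under the alternatives run and with each tumor left out. The reference channel alone, looked at after seeing the data, called 4 members between histologies and 3 between epithelial regimens. Of 544 differences of single members under alternatives, 536 stayed on the same side of the threshold, and 48 changed sign, 1 of them with a call. The count of related pairs was 26, 22 to 26 with other background correction, with the tumor channel alone and without the 2 farthest tumors, and 14 without the 6 tumors with Myh4 above 0, a setting chosen after seeing the data. That setting also cuts the range of Myh4, whose pairs are in the count. The count of all genes called moved more, from 60 to between 0 and 248 for onset in epithelial tumors, from 2 to between 0 and 17 for pubertal diet, from 103 to between 0 and 3966 for the epithelial regimens, between 19 and 3376 for the pubertal interaction, and from 4762 to between 2742 and 7909 between histologies. The 0 for onset came with the labels of the deposited table for 40R4A, 57R and 65R. No paired analysis was possible because at most 1 label number recurs in both groups of a comparison. Mylpf is limited by its low tumor signal, and values for 60L and 42L4B rest on the members left after outlier spots were removed.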

Other observations

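Tumors that share a label number, and may come from 1 host, did not always share their muscle values. Tumors 11L and 11R had Myh4 ratios of -3.12 and -4.18, and MSU_117L and MSU_117R had -3.08 and -1.19. Tumors 56R (epithelial) and M56LA (spindle cell) had 1.45 and -4.35 for Myh4 and -1.66 and -4.66 for Pvalb.

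For 2 members the array holds a second probe. The second Tnnt3 probe followed the first over 39 tumors with an r of 0.88 (rho 0.90), at a median ratio of -5.74 against -4.43. The second Pvalb probe followed the first over 40 tumors with an r of 0.91 (rho 0.74), at a median of -4.58 against -3.70.

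The adipocyte and mesenchymal lists were highest in M76R, with medians of 3.35 and 0.52. The lymphocyte list was highest in 57R, with a median of 3.92, the smooth muscle list in 90R, at -0.24, and the cardiac muscle list in MSU_122Rb, at -2.28, where 12 of the 65 listed skeletal muscle genes also had their highest value.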
